A study of Homo sapiens with 24 samples.

Results

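The 4 genes of the tissue inhibitor of metalloproteinases family, TIMP1, TIMP2, TIMP3 and TIMP4, were followed through all 24 RNA-seq libraries of the series. They are 4 of the 57736 genes in the count table and were taken by name, as the complete human family. The family was taken up with differences between the groups of these libraries in view, so the differences of its members are given below as descriptions with confidence intervals and without p-values. Which members passed the threshold used for all genes is stated later, also as description only. The libraries came from U87-T, a human glioblastoma line that carries added telomerase, in a DAXX series and an ATRX series that each had their own WT cells. Each series held WT control cells, WT cells with etoposide, KO control cells and KO cells with etoposide, with 3 libraries in each of the 8 groups. DAXX_KO and ATRX_KO were made by CRISPR and were each 1 clone with features of alternative lengthening of telomeres, so the loss of the gene and the history of the clone cannot be told apart. All cells, WT included, had received the telomerase construct. Etoposide is an inhibitor of topoisomerase II that leaves DNA breaks, and its dose and time for these libraries are not given in the sources used here. The labels call the cells without etoposide untreated. DAXX and ATRX act together to place the histone variant H3.3 into chromatin. The labels do not say whether the 3 libraries of a group came from separate cultures. The study describes its experiments in general as biological replicates, without saying this of the RNA-seq, and p-values measure only the spread between these libraries.

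TIMP proteins are secreted inhibitors that wedge into the active site of matrix metalloproteinases (MMPs) and so limit the breakdown of the extracellular matrix. TIMP1 is a soluble inhibitor that is often induced by cytokines and also binds the tetraspanin CD63 at the cell surface, and TIMP2 inhibits MMPs but also carries pro-MMP2 to MMP14, which activates it. TIMP3 stays bound to the matrix and has the widest reach, since it also inhibits the shedding protease ADAM17 and the aggrecanases of the ADAMTS family. TIMP4 has the most restricted expression, with brain and heart among its sites. Glioblastoma cells invade the brain through its matrix, and the balance of MMPs and TIMPs has long been studied there.

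In the GRCh37 build of the files, TIMP1 (ENSG00000102265) lies on the plus strand at chrX:47441807-47446188 and TIMP2 (ENSG00000035862) on the minus strand at chr17:76849059-76921469. TIMP3 (ENSG00000100234) lies on the plus strand at chr22:33197691-33259028 and TIMP4 (ENSG00000157150) on the minus strand at chr3:12194568-12200412. Their main transcripts encode 207, 220, 211 and 224 codons. TIMP1, TIMP3 and TIMP4 each lie inside a synapsin gene on the opposite strand, SYN1, SYN3 and SYN2 in that order. Exons overlapped only for TIMP4, by 170 bases and not in its last exon. TIMP2 holds CEP295NL on its own strand, with 224 bases of shared exon, and a lncRNA gene on the other strand over 367 bases of its last exon. Whether the counting used strand is not stated, so reads from such pairs may not have been kept apart. The synapsin genes and CEP295NL had 0 to 14 counts in each library, against at least 129 for every TIMP. Counts of the lncRNA gene over the last exon of TIMP2 are not reported here. Within the last 500 bases of their transcripts, the part a 3′ tag reads, no pair of TIMPs shared an exact stretch of more than 9 bases.

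TIMP1 and TIMP3 had the widest ranges across the 8 groups. They went opposite ways from WT in ATRX_KO and in DAXX_KO with etoposide, but not in DAXX_KO control cells, where TIMP1 overlapped WT. Their promoters are shown for these reasons. The sequences run from 250 bases before to 50 bases after the start of the gene and are those of RefSeq on GRCh38.p14, a later build than that of the files. TIMP1 is at chrX:47582186-47582485 and TIMP3 at chr22:32801455-32801754, both on the plus strand. The capitals mark TGAGTAA in TIMP1, a site like that of the AP-1 factors that was chosen with this promoter known, and every CpG in TIMP3.
TIMP1: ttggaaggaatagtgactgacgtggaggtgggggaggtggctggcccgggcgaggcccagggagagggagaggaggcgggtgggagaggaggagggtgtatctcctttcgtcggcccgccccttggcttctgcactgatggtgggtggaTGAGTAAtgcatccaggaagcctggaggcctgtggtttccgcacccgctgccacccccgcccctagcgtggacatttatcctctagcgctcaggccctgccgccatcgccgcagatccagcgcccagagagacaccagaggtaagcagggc
TIMP3: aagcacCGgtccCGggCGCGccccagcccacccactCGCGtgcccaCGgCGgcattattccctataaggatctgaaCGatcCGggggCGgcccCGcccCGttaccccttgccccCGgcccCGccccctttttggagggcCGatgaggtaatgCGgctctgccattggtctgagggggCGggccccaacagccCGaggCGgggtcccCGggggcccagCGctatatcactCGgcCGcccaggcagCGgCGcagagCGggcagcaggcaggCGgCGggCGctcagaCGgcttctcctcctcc
The TIMP1 promoter held TGAGTAA once, from base -101 to base -95 counted from the start, and 2.57% of the 35116 promoters in the table hold it on either strand. It had 16 CpG sites and 65.0% GC. The TIMP3 promoter was the more CpG-rich, with 31 CpG sites and 72.7% GC, and 79.3% of all promoters had fewer CpG sites than it did (median 14). TIMP3 held 5 GC boxes (GGGCGG on either strand), TIMP1 held 2 and TIMP4 held 1, and 45.0% of all promoters hold at least 1. The TIMP4 promoter had 12 CpG sites and 64.0% GC. The letters TGANTCA (in 7.71% of promoters), TATAAA (11.5%) and a p53 half-site (6.63%) were in none of these 3 windows on either strand, and no matches overlapped. The promoter of TIMP2 was not analysed here.

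Library totals ran from 6928950 to 13298557 counts. DAXX mRNA was 2.53 log2 units lower in DAXX_KO than in WT control cells (SE 0.15, adjusted p = 7.34e-11 by edgeR's quasi-likelihood test) and ATRX mRNA 1.25 lower in ATRX_KO (SE 0.09, adjusted p = 9.38e-09), although 1 of the labels gives the DAXX_KO samples an ATRX genotype. CDKN1A, the main p53 target that halts the cell cycle, rose with etoposide by 3.71 to 5.25 log2 units in the 4 kinds of cells. Of the markers listed for other cell types, AIF1, CD3E, CDH5, KDR and KRT5 had 3 counts or fewer in every library. The 5 immune markers summed to at most 3.48 CPM, a unit explained below. The 7 glioma and astrocyte markers summed to 6743 to 7356 CPM in WT control cells of the DAXX series and 2889 to 3215 with etoposide, to 4544 to 4852 and 1646 to 2654 in DAXX_KO, to 6615 to 7118 and 2433 to 2530 in WT of the ATRX series, and to 4439 to 6115 and 2493 to 3057 in ATRX_KO, so that they were lower with etoposide in every kind of cell. S100B had 3 counts or fewer throughout. The 4 epithelial markers summed to 23.2 to 28.0 CPM in WT control cells of the DAXX series and 4.28 to 7.26 in DAXX_KO control cells. In the ATRX series these sums were 23.3 to 30.3 CPM and 14.1 to 19.3 CPM. The 4 neuronal markers summed to 638 to 668 CPM in WT control cells of the ATRX series. Their sums were 333 to 343 in WT with etoposide there and 362 to 375 in ATRX_KO control cells. In the DAXX series the same groups had 460 to 507.5, 302 to 319.6 and 266 to 293 CPM. BCYRN1, a small brain-enriched RNA gene, took from 3.08% of counts in a library of ATRX_KO control cells to 12.1% in one of WT cells with etoposide. The part of these marker and BCYRN1 levels in the TIMP values was not tested. In bulk RNA, fewer cells that express a gene and less of its RNA per cell cannot be told apart.

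Levels are given as CPM, the counts a gene would have in a library of 1000000 counts, with library sizes scaled by TMM over the 24 libraries. The kit reads a tag at the 3′ end of each transcript, so CPM was not divided by gene length, and levels of different TIMPs compare tags. All 4 genes passed the filter on low counts in every fit, and no library had fewer than 129 counts of any of them. Log2 fold changes come from edgeR models of the 12 libraries of a series, or of all 24 where the series are compared, each with its SE or 95% confidence interval (CI). A value called centred is the log2 fold change of a TIMP less the median of its 60 neighbours. These are the 30 nearest tested genes on each side of it on the chromosome. The centred value is given where it changes the direction or moves the value by more than 1.5 times.

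TIMP1 was by far the most abundant TIMP in ATRX_KO cells and changed little with etoposide in WT cells. In the ATRX series, WT control cells had 366, 486 and 559.9 CPM and WT cells with etoposide 474, 486 and 476 CPM. ATRX_KO control cells had 1637, 1724 and 1647 CPM and ATRX_KO cells with etoposide 2893, 2952 and 3306 CPM. Every ATRX_KO library was above every other library of the 24, and the KO libraries with etoposide were all above those without. TIMP1 was thus 3.56-fold higher in ATRX_KO than in WT control cells (log2 fold change 1.83, CI 1.60 to 2.07) and 6.25-fold higher with etoposide (2.64, CI 2.40 to 2.89). Etoposide went with a difference of 0.05 in WT (CI -0.18 to 0.28, centred -0.11) and of 0.86 in ATRX_KO (CI 0.63 to 1.09), and the difference between these responses was 0.81 (CI 0.49 to 1.14).

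In the DAXX series TIMP1 lay between 271 and 555 CPM. WT control cells had 271, 338 and 358 CPM, and DAXX_KO control cells had 305, 293 and 332 CPM. These groups overlapped, with a log2 difference of -0.05 (CI -0.23 to 0.12) that turned to 0.13 when libraries were scaled by their totals alone. With etoposide the WT libraries had 380.4, 378 and 353 CPM and the DAXX_KO libraries 525, 519 and 555 CPM, and these did not overlap. DAXX_KO was 1.43-fold higher than WT there (log2 0.52, CI 0.34 to 0.69), with a centred value of 0.10. In control cells the centred value was -0.47. The response to etoposide was 0.22 in WT (CI 0.05 to 0.39), where the groups overlapped, and 0.79 in DAXX_KO (CI 0.62 to 0.96), where they did not. The WT value was 0.11 without replicate 1 of the WT control cells, and 0.023 when centred. In both series, then, TIMP1 was higher with etoposide in every KO library than in every control KO library, and the response was larger in the KO than in WT by 0.57 (CI 0.33 to 0.82) in the DAXX series, close to the 0.81 of the ATRX series.

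TIMP2 was higher in DAXX_KO than in its WT and lower in etoposide-treated than in control WT cells. WT control cells of the DAXX series had 207.5, 206 and 214 CPM and WT cells with etoposide 131, 144 and 132.5 CPM. DAXX_KO control cells had 391, 364 and 309.8 CPM and DAXX_KO cells with etoposide 334, 329 and 372.5 CPM. The KO groups overlapped each other and were above every WT library. DAXX_KO was 1.70-fold higher in control cells (log2 0.76, CI 0.60 to 0.93) and 2.53-fold higher with etoposide (1.34, CI 1.17 to 1.51). The centred value in control cells was 1.26. The response to etoposide was -0.61 in WT (CI -0.78 to -0.44) and -0.03 in DAXX_KO (CI -0.20 to 0.13, centred -0.18), a difference of 0.57 (CI 0.34 to 0.81).

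In the ATRX series TIMP2 had 164, 155 and 167 CPM in WT control cells and 101.7, 101.6 and 101.9 CPM in WT cells with etoposide. ATRX_KO control cells had 111.5, 155 and 103.5 CPM and those with etoposide 68.4, 91.5 and 108 CPM. Replicate 2 of the KO control cells lay within the WT range and the other two lay below it, so that the groups overlapped. The log2 difference of ATRX_KO from WT was -0.39 in control cells (CI -0.69 to -0.09) and -0.21 with etoposide (CI -0.52 to 0.10). Without that replicate the control value was -0.59, and without replicate 3 of the KO control cells it was -0.27. The centred values were 0.066 in control cells and 0.25 with etoposide, on the other side of 0. The response to etoposide was -0.65 in WT (CI -0.95 to -0.35), close to the -0.61 of the other WT cells, and -0.47 in ATRX_KO (CI -0.78 to -0.17), which became -0.28 without replicate 2 of the KO control cells and -0.32 without replicate 1 of the KO cells with etoposide.

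TIMP3 had the widest range of the family, with the highest group mean 11.3 times the lowest. WT control cells had 69.6, 71.7 and 67.9 CPM in the DAXX series, against 71.7, 60.3 and 59.8 CPM in the other. WT cells with etoposide had 172, 167 and 158 CPM in the first and 166, 184 and 183 CPM in the second. TIMP3 was therefore 2.40-fold higher with etoposide in WT cells of the DAXX series (log2 1.26, CI 1.09 to 1.44) and 2.81-fold higher in those of the ATRX series (1.49, CI 1.28 to 1.70), and the 6 treated WT libraries were above all other libraries. The KO cells went the other way. DAXX_KO had 50.9, 58.8 and 60.3 CPM in control cells and 49.1, 39.7 and 45.6 CPM with etoposide. ATRX_KO had 23.6, 24.7 and 24.5 CPM in control cells and 17.5, 16.7 and 12.7 CPM with etoposide. Etoposide-treated KO libraries were below their own controls in both clones without overlap.

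The response of TIMP3 to etoposide was -0.33 in DAXX_KO (CI -0.52 to -0.15) and -0.64 in ATRX_KO (CI -0.89 to -0.40). It was smaller than the WT response by 1.60 log2 units in DAXX_KO (CI of the difference -1.85 to -1.34) and by 2.14 in ATRX_KO (CI -2.46 to -1.81), the largest such difference of any TIMP in either series. With etoposide, TIMP3 was 3.72-fold lower in DAXX_KO than in WT (log2 -1.90, SE 0.09) and 11.6-fold lower in ATRX_KO (-3.53, SE 0.11). The centred value for DAXX_KO with etoposide was -1.25. In control cells it was 2.63-fold lower in ATRX_KO (-1.40, CI -1.62 to -1.17, centred -0.67). In DAXX_KO control cells it was 1.23-fold lower (-0.30, CI -0.48 to -0.12), with no overlap of the groups, but the value was -0.11 when libraries were scaled by their totals alone, a scaling that moved the median of all genes up by 0.19 in that comparison. The centred value there was 0.36, on the other side of 0.

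TIMP4 had the lowest level, between 11.4 and 39.2 CPM in all libraries. In the DAXX series the WT control cells had 21.4, 19.5 and 19.7 CPM and the WT cells with etoposide 29.3, 34.8 and 27.8 CPM. DAXX_KO had 35.01, 39.2 and 31.2 CPM in control cells and 36.2, 31.9 and 37.1 CPM with etoposide. The KO control libraries were above all WT control libraries, whereas with etoposide the groups overlapped. DAXX_KO was 1.74-fold higher than WT in control cells (log2 0.80, CI 0.56 to 1.03), against 0.18 with etoposide (CI -0.04 to 0.41, centred 0.34). The ATRX series ran opposite. Its WT control cells had 21.1, 21.6 and 20.3 CPM and its WT cells with etoposide 27.8, 28.5 and 28.8 CPM, while ATRX_KO had 13.7, 14.2 and 11.8 CPM in control cells and 11.4, 12.2 and 12.3 CPM with etoposide. Every ATRX_KO library was below every other library. ATRX_KO was 1.58-fold lower than WT in control cells (-0.66, CI -0.88 to -0.45) and 2.42-fold lower with etoposide (-1.27, CI -1.49 to -1.05). Etoposide went with 0.62 in WT of the DAXX series (CI 0.38 to 0.86) and 0.46 in WT of the ATRX series (CI 0.25 to 0.67), but 0.01 in DAXX_KO (CI -0.22 to 0.23, centred -0.009) and -0.15 in ATRX_KO (CI -0.38 to 0.08). The difference of the responses was -0.61 in both series.

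**Figure D1:**
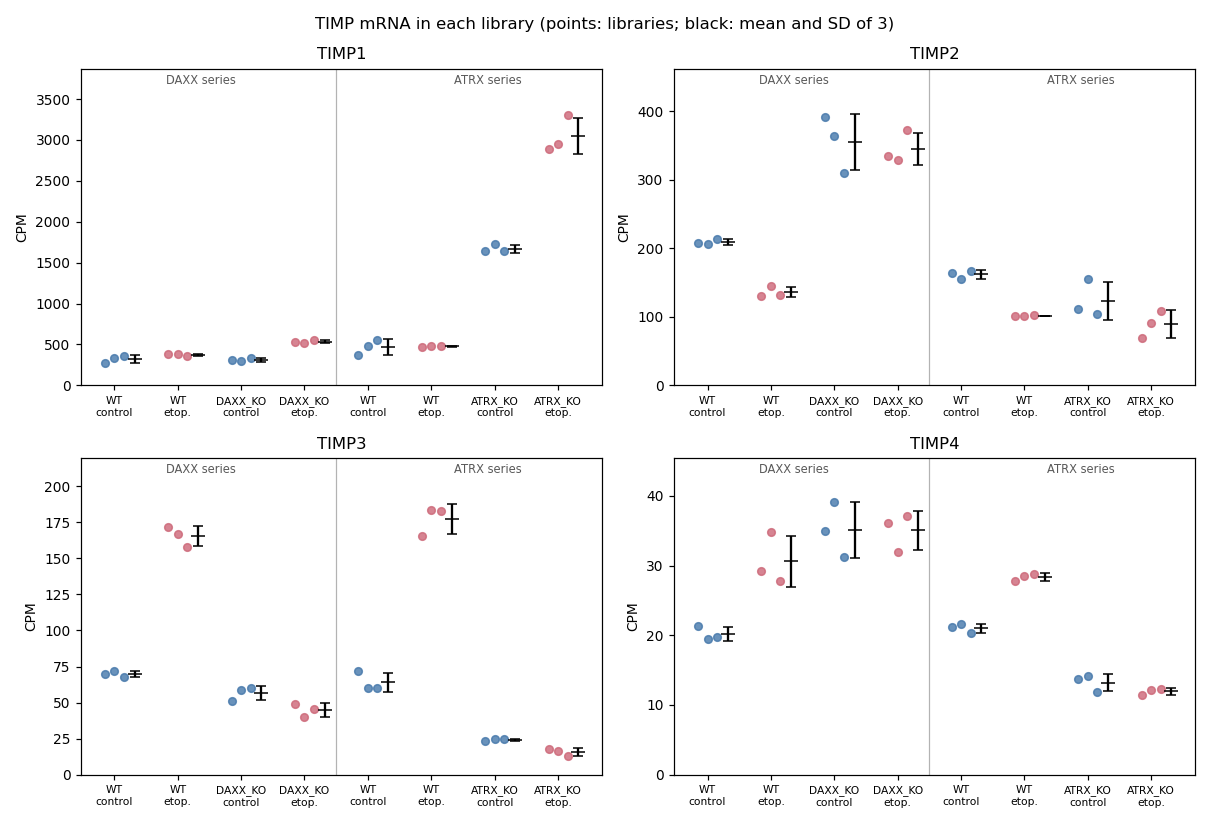
Level of each TIMP mRNA in CPM (linear axis from 0) in the 24 libraries, in the 4 groups of the DAXX series on the left of each panel and of the ATRX series on the right. Points are libraries, blue without and red with etoposide, and the black mark is the mean with the SD of 3. TIMP1 is highest in the ATRX_KO groups (means 1669 and 3050 CPM), while TIMP3 is high in the WT groups with etoposide (means 165.5 and 177 CPM).

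The order of the 8 group means was different for each gene. For TIMP1 it ran from ATRX_KO with etoposide, ATRX_KO control and DAXX_KO with etoposide (means 3050, 1669 and 533 CPM), which were all apart from their next neighbour, down through 5 groups between 479 and 310.0 CPM that each overlapped the next. For TIMP2 the DAXX_KO groups came first (355 and 345 CPM) and overlapped each other, and the ATRX_KO groups were at 123 and 89.4 CPM. For TIMP3 the etoposide-treated WT groups overlapped each other, the WT control groups overlapped each other, and DAXX_KO control cells overlapped the WT control cells of the ATRX series but not those of their own, whereas the lowest groups, from DAXX_KO with etoposide down to ATRX_KO with etoposide (44.8, 24.2 and 15.7 CPM), were all apart. For TIMP4 the DAXX_KO groups and both etoposide-treated WT groups formed an overlapping run from 35.1 to 28.4 CPM, the WT control groups overlapped at 21.0 and 20.2 CPM, and the ATRX_KO groups overlapped at 13.2 and 11.96 CPM. The highest mean was 9.84 times the lowest for TIMP1, 3.97 times for TIMP2 and 2.94 times for TIMP4.

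**Figure D2:**
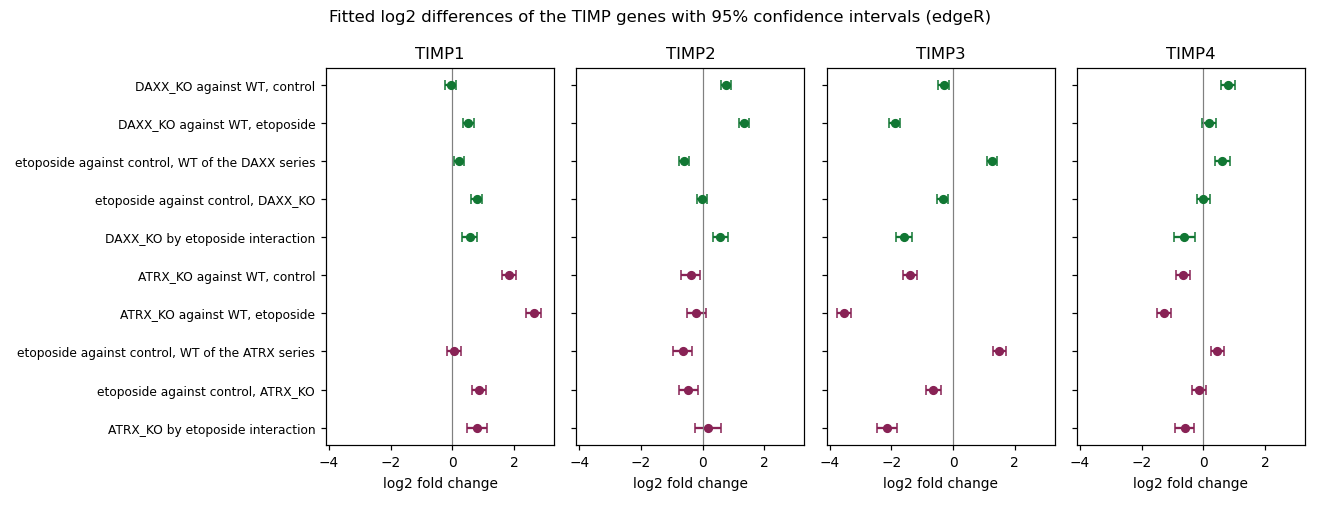
Log2 fold change of each TIMP (horizontal axis, edgeR) in the 5 comparisons of the DAXX series (green) and of the ATRX series (purple). Points are fitted values and bars their 95% confidence intervals. The interaction of knockout and etoposide lies below 0 for TIMP3 and TIMP4 and above 0 for TIMP1 in both series.

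The clones were compared with each other through their distance from WT. The DAXX_KO difference minus the ATRX_KO difference, each from its own WT, was -1.88 log2 units for TIMP1 in control cells (CI -2.19 to -1.58), 1.16 for TIMP2 (CI 0.80 to 1.52), 1.10 for TIMP3 (CI 0.81 to 1.39) and 1.46 for TIMP4 (CI 1.16 to 1.77). With etoposide the same 4 values were -2.15, 1.53, 1.62 and 1.44. In control cells the fitted values of TIMP4 were above WT in DAXX_KO and below it in ATRX_KO, with no overlap. Those of TIMP2 were above WT in DAXX_KO, while in ATRX_KO the libraries overlapped WT. The WT control cells themselves differed between the series, by -0.55 for TIMP1 (DAXX series minus ATRX series, CI -0.76 to -0.33) and 0.37 for TIMP2 (CI 0.12 to 0.62, 0.33 to 0.38 with 1 library left out in turn), and less for TIMP3 (0.12, CI -0.07 to 0.32, centred 0.23) and TIMP4 (-0.06, CI -0.27 to 0.16). Differences between the series other than the knockout and differences between the clones cannot be told apart.

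Against the genes at large, the number of TIMPs past a false discovery rate (FDR) of 0.05 was as follows, and nothing is read from it because the family was chosen on these contrasts. In DAXX_KO control cells 3 of the 4 TIMPs passed, with 53.4% of the 15247 tested genes, and 2 of them were higher (26.7% of genes) and 1 lower (26.6%). With etoposide 3 passed, with 53% of genes, 2 of them higher (27.9%) and 1 lower (25.2%). For the response to etoposide 4 passed in WT cells of the DAXX series, with 60.2% of genes, 3 of them higher (29.6%) and 1 lower (30.6%). In DAXX_KO 2 passed, with 54.5% of genes, 1 higher (26.8%) and 1 lower (27.8%). The interaction passed for 4, with 14.2% of genes, 2 of them higher (8.38%) and 2 lower (5.79%).

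In ATRX_KO control cells 4 TIMPs passed, with 41.8% of 16371 tested genes, 1 of them higher (20.8%) and 3 lower (21%). With etoposide 3 passed, with 45.9% of genes, 1 higher (23%) and 2 lower (22.9%). For the response to etoposide 3 passed in WT cells of the ATRX series, with 61.5% of genes, 2 of them higher (31.7%) and 1 lower (29.8%), and 3 passed in ATRX_KO, with 49.5% of genes, 1 higher (24.3%) and 2 lower (25.2%). The interaction passed for 3, with 16% of genes, 1 higher (8.36%) and 2 lower (7.64%). The difference between the knockouts passed for 4 in control cells, with 34.1% of 16674 genes, 3 of them higher (17%) and 1 lower (17.2%). With etoposide it passed for 4, with 34.5% of genes, 3 higher (17.7%) and 1 lower (16.8%). Between the WT control cells 2 passed, with 13.2% of genes, 1 higher (6.01%) and 1 lower (7.22%). That last total, 2206 genes, was 1106 without replicate 3 of the WT control cells of the DAXX series and 1373 without the same replicate of the ATRX series.

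Some of these calls were lost when 1 library was left out, although the values kept their direction. TIMP2 no longer passed in ATRX_KO control cells when any library was left out in turn, with the exception of replicate 2 of the KO control cells, nor between the WT control cells when any 1 of their 6 libraries was left out. TIMP1 in WT cells of the DAXX series no longer passed for etoposide without replicate 1 of the controls, or without replicate 1 or 2 of the treated cells.

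The 3 libraries of one group did not overlap those of the other for 3 TIMPs in DAXX_KO control cells, as for 60% of genes, and for 3 with etoposide, as for 58.3%. For etoposide this held for 3 in WT cells of the DAXX series (66.7% of genes) and 2 in DAXX_KO (58.2%). In the ATRX series it held for 3 in KO control cells (50.9%), 3 in KO cells with etoposide (55.2%), 3 for etoposide in WT cells (68.6%) and 2 for etoposide in ATRX_KO (53.8%). It held for 2 between the WT control cells (33.9%).

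The makeup of the TIMP tags differed between the groups. TIMP1 made up 51.7% ± 3.6 of the 4 genes' counts in WT control cells of the DAXX series (SD, n = 3) and 65.1% ± 5.7 in those of the ATRX series. Its share was 91.3% ± 1.2 in ATRX_KO control cells and 96.3% ± 0.4 in those with etoposide, with a summed level of 1830 ± 76 and 3167 ± 239 CPM against 718 ± 92 CPM in WT control cells. TIMP3 made up 22.5% ± 0.9 in WT cells of the ATRX series with etoposide and 0.50% ± 0.11 in ATRX_KO with etoposide. In DAXX_KO control cells TIMP2 held the largest mean share, 46.8% ± 4.1 against 33.8% ± 2.3 in WT, and TIMP1 held 41.0% ± 3.7, although in replicate 3 TIMP1 (45.3%) was above TIMP2 (42.3%). The summed level in the DAXX series ran from 622 ± 47 CPM in WT control cells to 958 ± 47 CPM in DAXX_KO with etoposide.

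**Figure D3:**
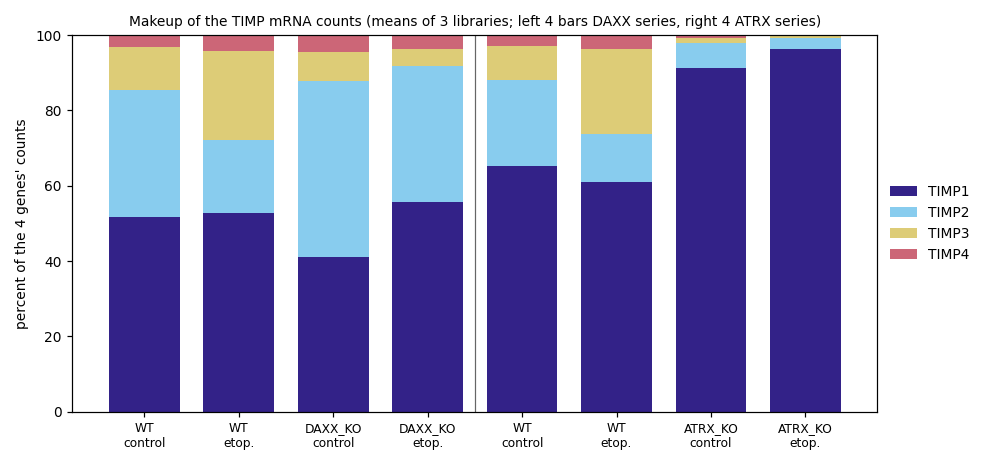
Share of each TIMP in the summed counts of the 4 genes (vertical axis in percent, stacked to 100), as the mean of 3 libraries in each of the 8 groups, DAXX series left and ATRX series right. TIMP1 takes 91.3% and 96.3% in the ATRX_KO groups, and TIMP3 reaches 23.6% and 22.5% in the WT groups with etoposide.

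The proteases that TIMPs inhibit were taken as lists. Of the 23 MMPs listed, 21 were in the table, and 6 passed the filter in the DAXX series, against 9 in the other. In DAXX_KO control cells 3 rose, 1 fell and 2 did not pass the test, beside 26.7% of all genes that rose and 26.6% that fell (median log2 fold change 0.75, against 0.02 over all genes tested), and in ATRX_KO 4 rose, 2 fell and 3 did not pass, beside 20.8% and 21% of all genes (median 0.01, against 0.02). The partners of TIMP2 moved in different ways in the clones. MMP14, the membrane protease to which TIMP2 docks pro-MMP2, had 48.3, 56.4 and 47.3 CPM in WT control cells of the DAXX series and 134, 144 and 154 CPM in DAXX_KO. In the ATRX series it had 68.9, 63.5 and 64.8 CPM in WT control cells and 113, 116 and 145 CPM in ATRX_KO. The groups did not overlap in either series, and MMP14 rose 2.85-fold in DAXX_KO (log2 1.51, SE 0.10, adjusted p = 1.18e-10 by edgeR) and 1.90-fold in ATRX_KO (0.93, SE 0.10, adjusted p = 1.24e-06).

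MMP2, the gelatinase that this complex activates, had 112, 119.8 and 117.5 CPM in WT control cells of the DAXX series and 237.5, 241 and 234 CPM in DAXX_KO, a rise of 2.04-fold (log2 1.03, SE 0.07, adjusted p = 6.16e-10 by edgeR). In the ATRX series it had 156, 150.2 and 153 CPM in WT control cells and 115, 121 and 131 CPM in ATRX_KO, a fall of 1.25-fold (-0.32, SE 0.08, adjusted p = 0.00334 by edgeR). TIMP2, MMP14 and MMP2 were therefore all higher in DAXX_KO than in its WT, while in ATRX_KO MMP14 rose, MMP2 fell and TIMP2 overlapped WT. The difference between the knockouts in control cells was 1.35 for MMP2 (SE 0.10, adjusted p = 1.1e-10 by edgeR) and 0.58 for MMP14 (SE 0.14, adjusted p = 0.00231). The WT control cells differed as well, DAXX series minus ATRX series. That difference was -0.395 for MMP2 (adjusted p = 0.000799 by edgeR) and -0.377 for MMP14 (adjusted p = 0.0176). For MMP2 the ATRX_KO control libraries overlapped the WT control libraries of the DAXX series.

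**Figure D4:**
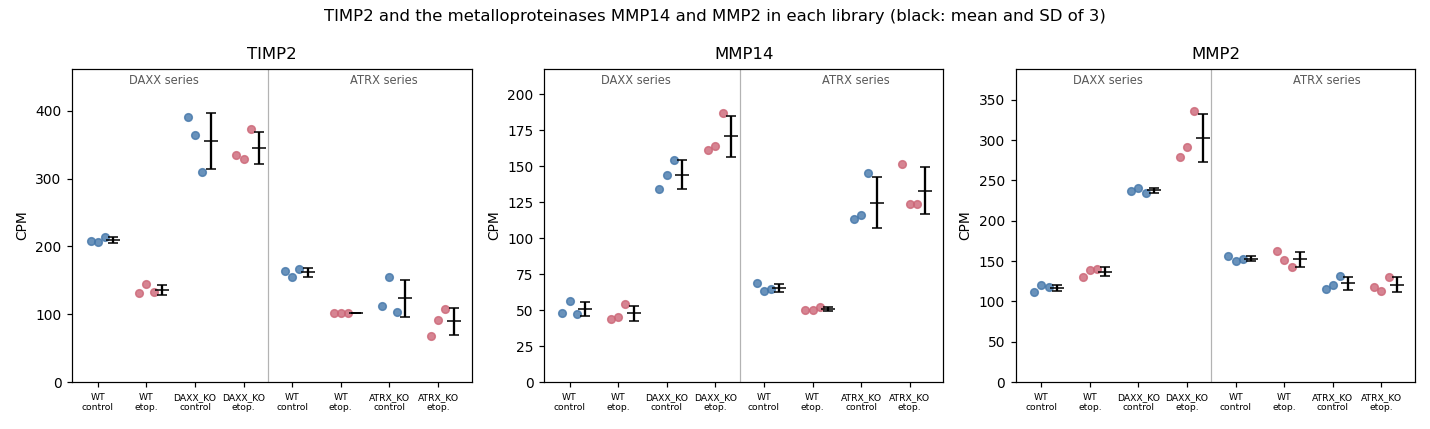
CPM (linear axis from 0) of TIMP2, MMP14 and MMP2 in the 24 libraries, DAXX series left and ATRX series right in each panel. Points are libraries, blue without and red with etoposide, and the black mark is the mean with the SD of 3. The group means of all 3 genes are highest in the DAXX_KO groups, where TIMP2 has means of 355 and 345 CPM. For MMP14 the libraries of DAXX_KO control cells overlap those of ATRX_KO.

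The stromelysin MMP3 and the collagenase MMP1 rose in ATRX_KO control cells, where TIMP1 was higher too. MMP3 had 4.04 to 5.52 CPM in WT control cells of the ATRX series and 16.6 to 25.2 CPM in ATRX_KO, a rise of 4.23-fold (log2 2.08, SE 0.18, adjusted p = 7.06e-08 by edgeR). In DAXX_KO it fell 1.99-fold (-0.995, SE 0.26, adjusted p = 0.00335 by edgeR). MMP1 had 15 to 19 counts in WT control cells of the ATRX series and 67 to 79 in ATRX_KO, a rise of 4.32-fold (2.11, SE 0.25, adjusted p = 4.15e-06 by edgeR). It had 4 to 13 counts in WT control cells of the DAXX series and 0 in each DAXX_KO control library, too few to pass the filter there. A count of 0 allows up to 3 counts in a library.

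The proteases and partners of TIMP3 gave a mixed picture. ADAM17, the sheddase that TIMP3 inhibits, rose with etoposide in WT cells together with the higher TIMP3, by 0.83 log2 units in the DAXX series (SE 0.08, adjusted p = 3.02e-08 by edgeR) and by 1.02 in the ATRX series (SE 0.07, adjusted p = 2.29e-09). It also rose in the KO cells, where TIMP3 was lower, by 0.49 in DAXX_KO (adjusted p = 4.5e-05 by edgeR) and 0.41 in ATRX_KO (adjusted p = 0.000115). Of the 9 ADAM sheddases listed, 8 were tested. In DAXX_KO control cells 4 rose and 1 fell, beside 26.7% and 26.6% of all genes (median 0.08, against 0.02), and in ATRX_KO 2 rose and 4 fell, beside 20.8% and 21% of all genes (median -0.21, against 0.02).

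ADAMTS5, an aggrecanase that TIMP3 blocks, rose 10.4-fold in DAXX_KO control cells (log2 3.38, SE 0.14, adjusted p = 2.84e-13 by edgeR) and 40.7-fold in ATRX_KO (5.35, SE 0.12, adjusted p = 8.24e-15). These folds start from different levels. ADAMTS5 was 2.26-fold higher in WT control cells of the DAXX series than in those of the ATRX series (log2 1.18, adjusted p = 0.000225 by edgeR). ADAMTS1, another member with aggrecanase activity, fell 3.70-fold in DAXX_KO control cells (-1.89, adjusted p = 1.05e-11 by edgeR) and rose 1.38-fold in those of ATRX_KO (0.47, adjusted p = 0.00231). With etoposide it was lower than WT in both, 4.21-fold in DAXX_KO (adjusted p = 9.78e-12 by edgeR) and 3.06-fold in ATRX_KO (adjusted p = 5.52e-09). ADAMTS4, also an aggrecanase, fell in control cells of both clones. Its log2 fold change was -1.23 in DAXX_KO (SE 0.40, adjusted p = 0.0148 by edgeR) and -2.14 in ATRX_KO (SE 0.43, adjusted p = 0.000695). In DAXX_KO with etoposide ADAMTS4 was above WT by 1.53 (adjusted p = 0.00115 by edgeR). Of the 19 ADAMTS proteases, 3 of 11 tested rose and 2 fell in DAXX_KO control cells, beside 26.7% and 26.6% of all genes (median 0.008, against 0.02), and 6 of 9 rose and 2 fell in ATRX_KO, beside 20.8% and 21% of all genes (median 0.74, against 0.02).

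EFEMP1, a matrix fibulin that binds TIMP3, was split between the clones. It had 42 to 69 counts in WT control libraries of the DAXX series and 154 to 182 in DAXX_KO, a rise of 1.83 log2 units (SE 0.14, adjusted p = 2.78e-09 by edgeR). In the ATRX series it had 49 to 89 counts in WT control libraries and 0, 2 and 4 in ATRX_KO, so close to 0 that no fold is given. LRP1, the endocytic receptor that takes up TIMP3, rose in both clones, 2.14-fold in DAXX_KO (adjusted p = 2.48e-08 by edgeR) and 1.78-fold in ATRX_KO (adjusted p = 0.000173). CD63, the surface partner of TIMP1, rose 1.57-fold in DAXX_KO (adjusted p = 1.13e-09 by edgeR), where TIMP1 overlapped WT, and 1.26-fold in ATRX_KO (adjusted p = 0.005). Of the 8 receptors and partners listed, 7 were tested, and 4 rose and 3 fell in DAXX_KO control cells, beside 26.7% and 26.6% of all genes (median 0.26, against 0.02), while 2 rose and 5 fell in ATRX_KO, beside 20.8% and 21% of all genes (median -0.29, against 0.02).

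Of the other protease inhibitors, TFPI2 had the widest rise in ATRX_KO control cells. TFPI2, a matrix-bound serine protease inhibitor, had 594.5, 622 and 607 CPM in WT control cells of the ATRX series and 3227, 5148 and 6077 CPM in ATRX_KO, a rise of 7.95-fold (log2 2.99, SE 0.16, adjusted p = 2.91e-10 by edgeR). In DAXX_KO it fell by 0.35 in control cells (SE 0.06, adjusted p = 2.99e-05 by edgeR) but was higher than WT by 0.36 with etoposide (adjusted p = 2.27e-05). In all, 1 of the 6 tested members of this list rose and 3 fell in DAXX_KO control cells, beside 26.7% and 26.6% of all genes (median -0.51, against 0.02), and 2 rose and 4 fell in ATRX_KO, beside 20.8% and 21% of all genes (median -0.49, against 0.02).

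The matrix proteins on which the MMPs act were listed too. Of the 18 matrix substrates listed, 7 of 15 tested rose and 3 fell in DAXX_KO control cells, beside 26.7% and 26.6% of all genes (median 0.48, against 0.02), and 2 of 16 rose and 11 fell in ATRX_KO, beside 20.8% and 21% of all genes (median -0.97, against 0.02). FN1, which encodes fibronectin, rose 3.87-fold in DAXX_KO (adjusted p = 7.72e-14 by edgeR) and fell 2.32-fold in ATRX_KO (adjusted p = 8.03e-08). COL6A1 of collagen VI rose by 0.58 log2 units in DAXX_KO (adjusted p = 3.46e-07 by edgeR) and fell by 1.24 in ATRX_KO (adjusted p = 8.64e-10). The WT control cells differed too, DAXX series minus ATRX series. This difference was -0.50 for FN1 (adjusted p = 0.000755 by edgeR) and -0.65 for COL6A1 (adjusted p = 6.59e-07). Between these WT cells 0 of 16 tested substrates were higher and 5 lower, beside 6.01% and 7.22% of all genes. Of the 14 genes for AP-1 subunits, STAT3 and TGF-beta signalling, inputs known to act on TIMP genes, 5 of 13 tested rose and 4 fell in DAXX_KO control cells, beside 26.7% and 26.6% of all genes (median 0.05, against 0.02), and 4 of 14 rose and 3 fell in ATRX_KO, beside 20.8% and 21% of all genes (median 0.01, against 0.02). JUND rose in both clones, by 1.34 in DAXX_KO (adjusted p = 1.93e-10 by edgeR) and 1.42 in ATRX_KO (adjusted p = 5.76e-09). JUN and FOSL1, the AP-1 members with the highest mean levels, fell in DAXX_KO control cells. The falls were 0.71 for JUN (adjusted p = 4.86e-09 by edgeR) and 1.30 for FOSL1 (adjusted p = 9.57e-11), so the AP-1 members did not move together.

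The chromosomal surroundings of the TIMPs were compared through the 30 nearest tested genes on each side. Neighbours of TIMP3 were on the lower side in both clones, with medians of -0.66 (DAXX_KO) and -0.73 (ATRX_KO) for the log2 fold change in control cells. TIMP3 itself, at -0.30 in DAXX_KO, was above 42 of its 60 neighbours, and at -1.40 in ATRX_KO it was below 51 of them. Neighbours of TIMP2 had medians of -0.49 and -0.46. TIMP2 was above 56 of 60 in DAXX_KO and above 32 of 60 in ATRX_KO. TIMP1 was above all 60 of its neighbours in ATRX_KO control cells, whose median was 0.06, and below 48 of 60 in DAXX_KO, whose median was 0.42. TIMP4 was above 55 of 60 in DAXX_KO and below 57 of 60 in ATRX_KO. For the interaction of knockout and etoposide, TIMP3 was below all 60 neighbours in both series, whose medians were -0.01 and -0.21.

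Among the direct neighbours of TIMP4, PPARG had 2 to 7 counts in WT control libraries of the DAXX series and 146 to 148 in DAXX_KO. In ATRX_KO control cells it had 0 to 2 counts. FBXO7, the nearest tested gene before TIMP3, fell by 0.49 log2 units in DAXX_KO control cells (adjusted p = 8.79e-06 by edgeR) and by 0.74 in ATRX_KO (adjusted p = 2.71e-06).

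**Figure D5:**
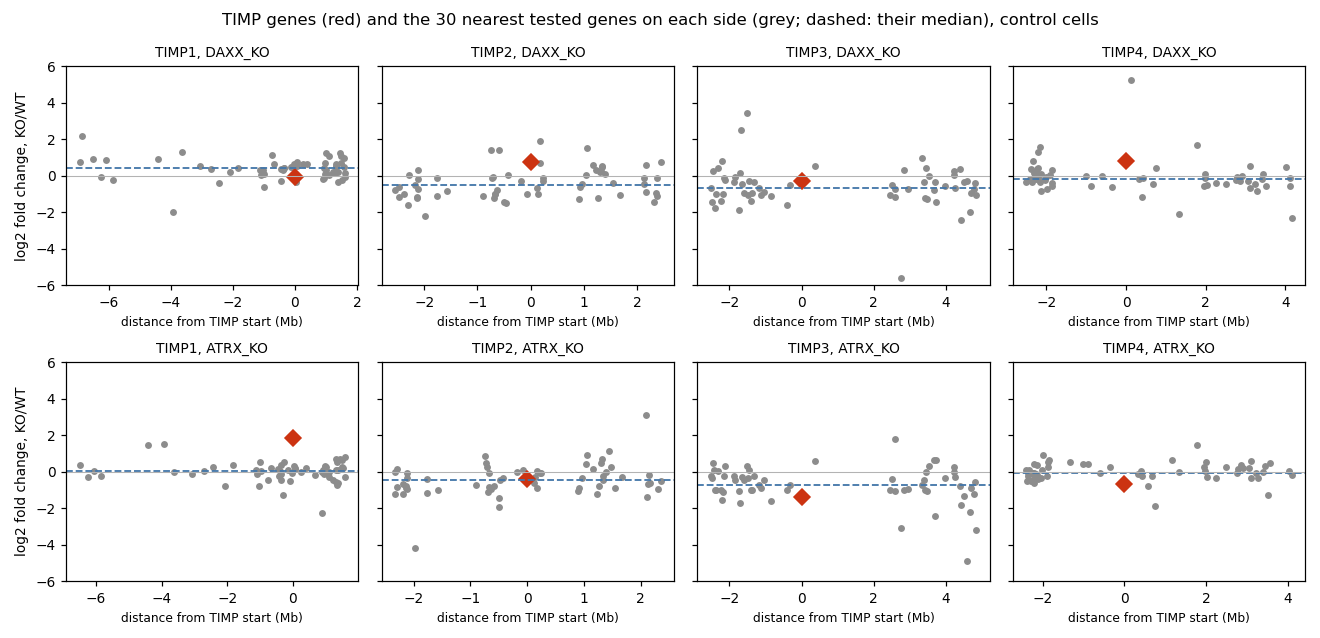
Log2 fold change of KO against WT in control cells (vertical axis) of each TIMP (red diamond) and its 30 nearest tested genes on each side (grey points), by distance from the start of the TIMP in megabases (Mb). The dashed line is the median of the 60 neighbours and the top row is DAXX_KO, the bottom row ATRX_KO. The neighbours of TIMP3 centre on -0.66 and -0.73, and TIMP1 stands above all of its neighbours in ATRX_KO.

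Among 16673 other genes, those most like each TIMP in log2 CPM over the 24 libraries were found by Pearson's r. They were ZNF793-AS1 (r = 0.966), IL1B (0.962), ZNF569 (0.953), SERPIND1 (0.951) and SDC3 (0.95) for TIMP1. For TIMP2 they were GDI2 (0.961), NDUFAF3 (0.953), SNX21 (0.952), PPIA (0.951) and EPB41L1 (0.942). For TIMP3 they were GTF3A (0.936), SRRD (0.933), TFAP2A (0.916), NFU1 (0.915) and FAM13C (0.909), and for TIMP4 they included HLA-DRB1 (0.957), LINC01605 (0.949), NIT2 (0.938) and HLA-DRB5 (0.937), of which HLA-DRB1 and HLA-DRB5 are near copies that can share reads. No TIMP was among the 5 most like another. Between the TIMPs themselves r was -0.82 for TIMP1 and TIMP4, -0.79 for TIMP1 and TIMP3, -0.59 for TIMP1 and TIMP2, 0.05 for TIMP2 and TIMP3, 0.66 for TIMP2 and TIMP4 and 0.68 for TIMP3 and TIMP4. The 24 points share 8 groups and their depth, so these values describe the pattern of the groups.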

How the data were processed

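Libraries of 24 U87-T samples were prepared by the authors with a Lexogen QuantSeq 3′ kit, aligned with STAR to hg19, and quantified per gene with RSEM. The deposited values are expected counts that the authors made with RSEM, written as whole numbers, and no normalization was found in them. Library totals ran from 6928950 to 13298557, and more counts give smaller counting error. Symbols came from GENCODE release 44 on build 37, which matched 55501 of 57736 gene IDs with 98.8% of the counts. Groups followed the sample titles.

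Counts were fitted with edgeR 4.0.16 in R 4.3.3 by the quasi-likelihood test, with TMM scaling and filterByExpr (minimum count 10, minimum total 15), in models of 12 libraries per series, or of 24 for comparisons between series. Adjustment over all tested genes followed Benjamini and Hochberg, with an FDR threshold of 0.05. SE was derived from the log2 fold change and its F statistic, and intervals are 95%. The fit of KO against WT in control cells was also run on simulated counts for each series, with an outcome not reported here. Interactions and comparisons between series were not simulated. Similar genes were ranked on log2 CPM with a pseudocount of 2 counts. DESeq2 1.42.0 was an alternative. Plots used matplotlib 3.10.9 under Python 3.11.15.

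The members, gene lists and markers were chosen with earlier results of these data known. Genes to be named were the 4 TIMPs in every library, DAXX, ATRX and BCYRN1, the 5 genes most like each TIMP, their direct neighbours, and from each list the 3 with the highest mean and the 3 largest called changes, of which a selection is given. CDKN1A was added after its values were seen. MMP12, MMP28 and PECAM1 were not analysed here, and some genes that this rule gives are not reported here. Replicate pairs differed by more than counting noise (chi-square per degree of freedom 2.16 to 17.1 over 24 pairs), so none was treated as a duplicate.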

Additional observations from a re-analysis of the deposited data

Results flagged for a closer look

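Differences between groups in the same contrast, each past an FDR of 0.05 by edgeR, were as follows on the log2 scale. For the TIMPs they are descriptions, because the family was chosen on these data. The response to etoposide in DAXX_KO minus that in WT was 0.57 for TIMP1, 0.57 for TIMP2, -1.60 for TIMP3 and -0.61 for TIMP4, and in ATRX_KO minus WT it was 0.81 for TIMP1, -2.14 for TIMP3 and -0.61 for TIMP4. The DAXX_KO difference from WT minus the ATRX_KO difference from WT in control cells was -1.88 for TIMP1, 1.16 for TIMP2, 1.10 for TIMP3 and 1.46 for TIMP4, and with etoposide it was -2.15, 1.53, 1.62 and 1.44.

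Among the other genes, the response to etoposide differed between DAXX_KO and WT by 0.71 for TFPI2, 0.28 for CD63 and -0.43 for FN1. Between ATRX_KO and WT it differed by 0.43 for MMP14, 1.33 for MMP1, -0.61 for ADAM17, -2.08 for ADAMTS1 and -1.75 for ADAMTS5. Of these, MMP14 (adjusted p = 0.049 by edgeR) and MMP1 (adjusted p = 0.0459) passed only narrowly. MMP1 had just 2 to 7 counts in WT libraries of the ATRX series with etoposide. The difference between the knockouts in control cells was 1.35 for MMP2, 0.58 for MMP14, -3.07 for MMP3, -3.34 for TFPI2, 0.32 for CD63, 3.17 for FN1, -0.73 for ADAM17, -2.35 for ADAMTS1 and -1.97 for ADAMTS5. With etoposide it was 1.48 for MMP2, 0.45 for MMP14, -3.10 for MMP3, -2.75 for TFPI2, 0.51 for CD63, 2.41 for FN1, -0.48 for ADAM17, -0.48 for ADAMTS1 and -0.78 for ADAMTS5.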

How the results depend on the processing

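DESeq2, RLE scaling, no filter and a filter of at least 10 counts in every library left each of the 52 TIMP values on its side of the FDR threshold and every count of genes called within 1.5 times. Library totals alone moved the median of all genes by up to 0.19 and took TIMP3 in DAXX_KO control cells to -0.11, TIMP2 in ATRX_KO control cells to -0.33 and TIMP2 between the WT controls to 0.32, all no longer past the threshold. They also moved the share of called genes that were higher from 50.1% to 66.2% (DAXX_KO control), 59.1% to 36.8% (interaction in the DAXX series), 50.1% to 60.2% (ATRX_KO with etoposide), 49.7% to 62.7% (difference between the knockouts, control) and 45.4% to 29.3% (WT controls). One model of 24 libraries gave 0.20 for TIMP1 with etoposide in WT of the DAXX series, and a model of only the compared groups -0.46 for TIMP2 with etoposide in ATRX_KO, both no longer past it. At an FDR of 0.01, 1136 and 1161 genes were called for the interactions in the DAXX and ATRX series (2160 and 2619 at 0.05) and 1023 between the WT controls.

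Leaving out libraries in turn gave 0.11 to 0.29 for TIMP1 with etoposide in WT of the DAXX series, lost in 3 of 6 fits, -0.59 to -0.27 for TIMP2 in ATRX_KO control cells, lost in 5, -0.64 to -0.28 for TIMP2 with etoposide in ATRX_KO, lost in 2, and 0.33 to 0.38 for TIMP2 between the WT controls, lost in 6. Genes called between the WT controls ran from 1106 to 1695. Same-numbered replicates did not deviate together (correlations -0.21 to 0.05 within series), so the numbers were not taken as pairs. A fit with the replicate block gave 0.37 for TIMP2 between the WT controls, no longer past the threshold, and changed no other TIMP call.

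Centring each TIMP on the median of its 60 neighbours turned TIMP3 in DAXX_KO control cells to 0.36 and TIMP2 in ATRX_KO control cells to 0.066. It moved other values by more than the replicate spread. In DAXX_KO control cells these were -0.47 for TIMP1, 1.26 for TIMP2 and 0.99 for TIMP4, and with etoposide 0.10, 1.88, -1.25 and 0.34 for TIMP1 to TIMP4. With etoposide they were 0.023 (TIMP1) and 1.09 (TIMP3) in WT of the DAXX series, -0.18 (TIMP2) in DAXX_KO, -0.78 (TIMP2), 1.36 (TIMP3) and 0.30 (TIMP4) in WT of the ATRX series and 0.78 (TIMP1) in ATRX_KO. In ATRX_KO against WT they were -0.67 (TIMP3) in control cells and 0.25 (TIMP2), -2.80 (TIMP3) and -1.12 (TIMP4) with etoposide. The interaction of TIMP3 in the ATRX series was -1.93, the difference between the knockouts -2.23 (TIMP1) and 1.60 (TIMP4) in control cells and -2.56 and 1.56 with etoposide, and TIMP2 between the WT controls 0.45. Of 1608 counts of list genes under the alternatives, 1525 were within 1.5 times. Except where the construction of a fit shows it, the cause was not tested.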
